A study of Mus musculus with 8 samples.

Results

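H3K9me3 was examined over the genes of the teashirt family in crypts isolated from the mouse colon. The family comprises *Tshz1*, *Tshz2* and *Tshz3*, which encode large zinc finger transcription factors related to the fruit fly protein teashirt. A MACS peak counted as a teashirt peak when the deposited annotation named 1 of these genes as the closest gene within 5 kb. By this rule 25 of 53761 peaks were teashirt peaks, with 14 at *Tshz2*, 10 at *Tshz3* and 1 at *Tshz1*. *Tshz2* was chosen by the KO against WT values of its peaks in these same libraries, so the KO and WT values of the teashirt peaks are given as a description and without p-values.

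The mice were C57BL/6 animals, WT or carrying a *Vil-Cre* mediated deletion of *Smarcad1*, and the ages of the animals used for these libraries were not given in the sources used here. The titles of the WT libraries read CTRL, and the study uses WT and control for the same group. Its text does not say whether these control animals carried the floxed allele. *Smarcad1* encodes an ATPase that remodels chromatin. The *Vil1* promoter drives Cre in the intestinal epithelium, whereas whole crypt isolates were used for ChIP, so the *Smarcad1* gene should be intact in any other cells that the isolates held. The floxed allele came from a single line. There were 3 H3K9me3 ChIP libraries and 1 input library per genotype. The study describes the 3 libraries of a genotype as biological replicates, and the labels do not say whether each came from a separate animal. The table held 0 peaks assigned to *Smarcad1*, so the deletion could not be checked in it, and it holds no RNA values with which the cell type could be checked.

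H3K9me3, trimethylation of lysine 9 of histone H3, is a mark of heterochromatin that is bound by HP1 proteins and is generally found where transcription is low. It covers repeats, endogenous retroviruses and clustered zinc finger genes in most mouse tissues. Teashirt proteins bind DNA and recruit co-repressors. In mouse development *Tshz1* is needed for the soft palate, the middle ear and the olfactory bulb, and *Tshz3* for the smooth muscle of the ureter. Whether the mark at these genes alters their transcription cannot be read from ChIP-seq alone.

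*Tshz2* (ENSMUSG00000047907) lies on the plus strand of chromosome 2 at 169633013 to 170071816 in GRCm38, and is 439 kb long. Almost all of its protein is encoded by the large exon 2 of the main transcript. *Tshz2* peak 6, counted from the 5′ end of the gene, held this whole exon, with 3050 coding bases. An antisense lincRNA, *Gm26883*, overlaps peaks 1 to 6 of *Tshz2*, and *A630075F10Rik* overlaps peak 14. Since the counting is not stated to use strand, and a histone mark has none, H3K9me3 at these peaks belongs as much to the overlapping gene as to *Tshz2*.

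The central 300 bases are shown of the *Tshz2* peak with the largest difference between KO and WT (peak 6) and of the peak with the smallest (peak 11). The pair was chosen by the size of that difference, and base content returns below. Capitals mark CpG dinucleotides, and both are read from the plus strand of GRCm38. The former, at chr2:169885726-169886025, is coding sequence throughout and holds 14 CpG and no repeat base. The latter, at chr2:169968226-169968525, is intronic, holds 2 CpG, and is 69.0% repeat sequence. The contrast was smaller over the whole peaks. Peak 6 held 27.2 CpG per kb and 8.0% repeat sequence, and peak 11 held 10.4 CpG per kb and 26.7% repeat sequence.
*Tshz2* peak 6: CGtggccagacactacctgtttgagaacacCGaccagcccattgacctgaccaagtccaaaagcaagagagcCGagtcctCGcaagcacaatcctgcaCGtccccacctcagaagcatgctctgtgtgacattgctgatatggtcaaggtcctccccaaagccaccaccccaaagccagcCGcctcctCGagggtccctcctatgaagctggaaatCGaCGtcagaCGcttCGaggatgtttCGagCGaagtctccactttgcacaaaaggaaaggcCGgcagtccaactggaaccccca
*Tshz2* peak 11: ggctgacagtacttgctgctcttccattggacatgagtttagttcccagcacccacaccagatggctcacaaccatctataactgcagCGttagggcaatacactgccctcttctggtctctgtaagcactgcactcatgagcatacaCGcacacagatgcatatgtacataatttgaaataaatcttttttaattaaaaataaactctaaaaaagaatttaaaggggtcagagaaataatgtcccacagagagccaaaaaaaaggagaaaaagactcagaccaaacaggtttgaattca

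Peak 6 also holds the codons of the 3 teashirt-type zinc fingers, the motif that characterizes the family. A search of the translated coding sequence for the cysteine and histidine spacing of these fingers found 3 in *Tshz2* and 3 in *Tshz3*. The first finger of each gene is printed with the codons of its zinc-binding cysteines and histidines in capitals. It lies at chr2:169884137-169884205 in *Tshz2* and at chr7:36769233-36769301 in *Tshz3*, plus strand in both.
*Tshz2* finger 1: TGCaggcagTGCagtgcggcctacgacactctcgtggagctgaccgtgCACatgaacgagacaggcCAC
*Tshz3* finger 1: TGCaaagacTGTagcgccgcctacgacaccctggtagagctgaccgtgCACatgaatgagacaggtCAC
Of the 69 bases of this finger 57 were identical between the genes (82.6%), and fingers 2 and 3 shared 78.3% and 79.7% of their bases. Both exons lie under an H3K9me3 peak.

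H3K9me3 was higher in KO than in WT at the peaks in the middle of *Tshz2*, and overlapped between the genotypes at the peaks farther downstream. The first 195 kb of the gene held no peak and were not measured. The peaks fell into 3 stretches separated by gaps of 71.7 and 73.5 kb. This division, at gaps over 50 kb, was made after the values had been seen. Peaks 1 to 9 began 195 kb from the start of the gene and covered 28.5 kb of a 65.2 kb stretch (chr2:169828201-169893450), and all 9 of them were higher in every KO library than in every WT library. Their median log2 fold change, KO against WT, was 2.01, a 4.04-fold difference, with a range of 0.71 to 2.63 (1.64-fold to 6.19-fold). Peaks 10 to 12 had a median log2 fold change of 0.11, and peaks 13 and 14 had a median of -0.37, with overlapping KO and WT values at all 5 peaks, which cover 4.5 and 2.1 kb. The median over all 14 peaks was 1.41.

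Each value below is the deposited log2 read count of the whole peak, in WT replicates 1, 2 and 3 and then in KO replicates 1, 2 and 3. Such values rise with the width of a peak, so they compare libraries and not peaks. SE is the standard error of the log2 fold change from limma.

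Peak 6 (chr2:169882951-169888800, 5850 bp) holds the coding exon and had the largest difference. Its WT values were 4.63, 4.31 and 4.70, and its KO values were 7.32, 7.43 and 6.78. The log2 fold change was 2.63 (SE 0.18), and every KO library lay far above every WT library. Counted as reads, which could be recovered up to 100 reads from the steps of the values, the peak had 22, 22 and 30 reads in WT and over 100 in each KO library.

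Directly downstream of the exon, peaks 7, 8 and 9 are short peaks with few reads, intronic by the transcripts that reach farther 3′. Peak 7 (chr2:169889551-169890450) had WT values of 3.88, 1.84 and 2.59 and KO values of 4.43, 4.71 and 3.95. WT replicate 1 nearly reached KO replicate 3 here, and the log2 fold change of 1.60 had an SE of 0.39, the largest of the 14 peaks. Peak 8 (chr2:169891051-169892100) had 2.27, 2.67 and 1.69 in WT against 4.06, 5.26 and 4.77 in KO, a log2 fold change of 2.49 (SE 0.38). In reads this was 4, 7 and 4 in WT and 14, 39 and 29 in KO, so the WT values rest on few reads. Peak 9 (chr2:169892251-169893450) had 2.55, 1.84 and 2.59 in WT and 5.14, 5.08 and 4.48 in KO, a log2 fold change of 2.57 (SE 0.35).

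The intronic peaks upstream of the coding exon were also higher in KO. Peaks 1 and 2, the farthest from the exon, had the smallest differences, but the differences did not change steadily with distance. Peak 1 (chr2:169828201-169833000) stood at 5.82, 4.75 and 5.57 in WT and 6.48, 6.75 and 6.56 in KO, with a log2 fold change of 1.22 (SE 0.19). Peak 2 (chr2:169855501-169858800) gave 5.60, 5.64 and 5.57 in WT and 6.58, 6.44 and 5.93 in KO, a log2 fold change of 0.71 (SE 0.17). The KO and WT libraries did not overlap at either peak.

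Peak 3 (chr2:169861201-169866450) had 4.43, 3.86 and 4.75 in WT and 6.85, 6.93 and 6.39 in KO, a log2 fold change of 2.38 (SE 0.20). Peak 4 (chr2:169870201-169875000) was at 4.87, 4.17 and 4.88 in WT and at 6.83, 6.92 and 6.22 in KO, a log2 fold change of 2.01 (SE 0.20). Peak 5 (chr2:169878901-169880250) was the most variable in KO, with 5.03, 5.64 and 3.77, against 3.52, 3.33 and 2.34 in WT, and a log2 fold change of 1.75 (SE 0.35). At peak 5 the lowest KO library lay only slightly above the highest WT library.

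The libraries of a genotype kept a similar order along the stretch. KO replicate 2 was the highest KO library at 7 of the 9 peaks. KO replicate 3 was the lowest KO library at 7, not all of them the same peaks. WT replicate 2 was the lowest WT library at 6 of the 9. The matched counts summed over peaks 1 to 9 were, on the log2 scale, 7.77, 7.25 and 7.63 in WT and 9.41, 9.57 and 8.97 in KO. The means were 7.55 ± 0.26 and 9.32 ± 0.31 (SD, n = 3), a difference of 1.77 log2 units or 3.41-fold.

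**Figure D1:**
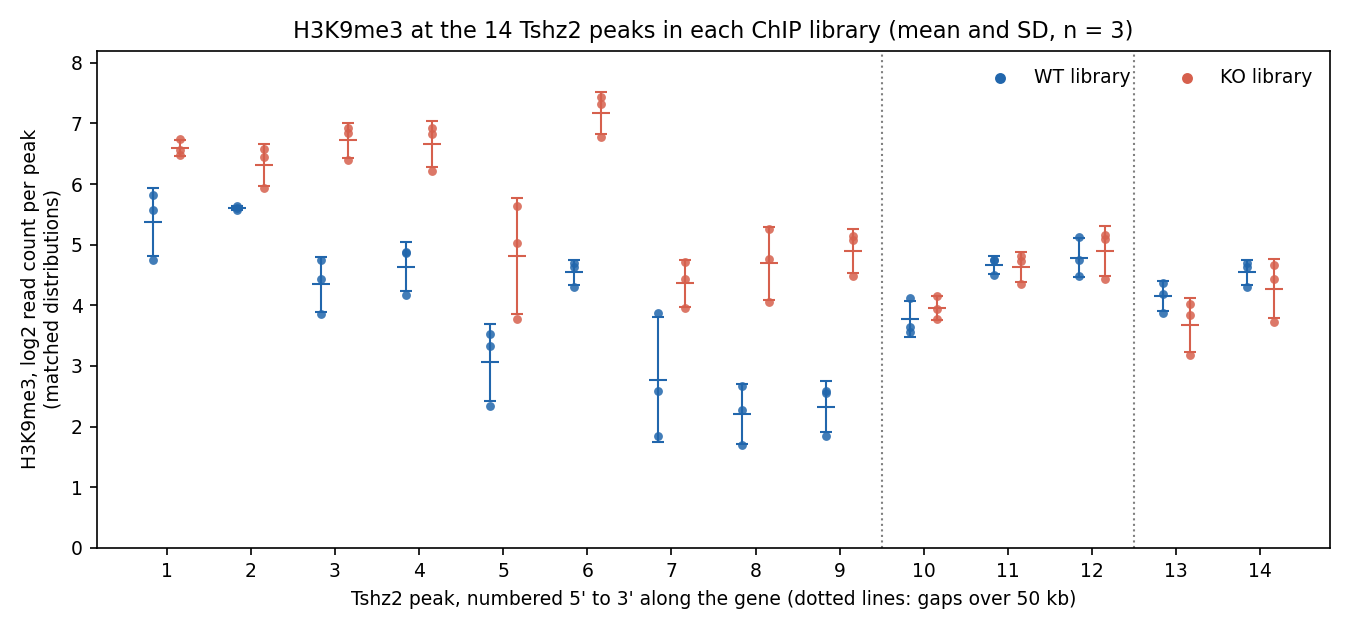
Log2 read count (y) of each of the 14 *Tshz2* peaks (x, numbered from the 5′ end) in 3 WT (blue) and 3 KO (red) ChIP libraries; dots are libraries and bars are the mean with its SD. The red dots lie above all blue dots at peaks 1 to 9 and overlap them at peaks 10 to 14.

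In the next stretch, peaks 10 to 12, the KO and WT values overlapped at each peak. Peak 10 (chr2:169965151-169966050) had 3.65, 3.56 and 4.12 in WT and 4.16, 3.94 and 3.77 in KO, a log2 fold change of 0.18 (SE 0.31). Peak 11 (chr2:169967701-169969050) had 4.50, 4.75 and 4.75 against 4.73, 4.81 and 4.35, a log2 fold change of -0.04 (SE 0.24). Peak 12 (chr2:169969951-169972200) had 5.12, 4.75 and 4.49 against 4.43, 5.16 and 5.10, a log2 fold change of 0.11 (SE 0.24). The summed level of these 3 peaks was 6.08 ± 0.05 in WT and 6.15 ± 0.14 in KO (SD, n = 3).

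Near the 3′ end of the whole annotated span of the gene the means leaned the other way. Peak 13 (chr2:170045701-170046600) had 3.88, 4.37 and 4.19 in WT and 3.84, 4.03 and 3.18 in KO, a log2 fold change of -0.46 (SE 0.31). Peak 14 (chr2:170065951-170067150) had 4.63, 4.31 and 4.70 in WT and 4.43, 3.73 and 4.66 in KO, a log2 fold change of -0.27 (SE 0.27). Both differences were below 2 standard errors. Summed over both peaks the level was 5.37 ± 0.09 in WT and 5.05 ± 0.14 in KO (SD, n = 3).

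Over all 14 peaks the summed log2 level was 8.35, 8.01 and 8.27 in WT and 9.61, 9.76 and 9.24 in KO. The difference between the means, 8.21 ± 0.18 and 9.54 ± 0.27 (SD, n = 3), was 1.32 log2 units or 2.5-fold. In the limma fit over all peaks, 9 of 14 *Tshz2* peaks were called higher in KO at an adjusted p under 0.05 and 0 lower, where 0.796% of all peaks were called higher and 0.863% lower. The same 9 peaks had all KO values above all WT values, as did 7.2% of all peaks, whereas none of the 25 teashirt peaks had all KO values below all WT values, as 8.42% of all peaks did. The counts at *Tshz2* follow from the choice of the gene. At a share of 8.42% few of 25 peaks would be found in any case, so finding none says little. The 9 called peaks are peaks 1 to 9, and the calls of peaks 2, 5 and 7 did not hold in every fit that left out 1 library.

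The table held 111 other peaks within 2 Mb of the *Tshz2* peaks, 33 upstream and 78 downstream, and none of them lay inside the gene. Of these, limma called 0 higher in KO and 3 lower, where 0.796% of all peaks were called higher and 0.863% lower. At such shares few calls would be found among 111 peaks in any case, so the 0 says little. At an unadjusted p under 0.05 there were 4 higher and 8 lower, where 4.52% of all peaks were higher and 6.06% lower. The nearest peak upstream (chr2:169564501-169565400) was 263 kb from *Tshz2* peak 1 and had 3.79 ± 0.24 in WT and 3.47 ± 0.39 in KO (SD, n = 3; log2 fold change -0.33, SE 0.34, limma adjusted p = 0.808). On the 3′ side the nearest (chr2:170214751-170215650) was 148 kb beyond peak 14, past the neighboring gene *Zfp217*, and had 3.82 ± 0.55 in WT and 3.85 ± 0.09 in KO (log2 fold change 0.04, SE 0.32, limma adjusted p = 0.986). KO and WT thus overlapped at both flanks.

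The 3 peaks called lower had no gene within 5 kb and lay at least 1730 kb from the *Tshz2* peaks. The peak at chr2:167881801-167883300 had 5.25 ± 0.29 in WT and 4.30 ± 0.27 in KO (log2 fold change -0.95, SE 0.23, limma adjusted p = 0.0163). At chr2:167912251-167914950 the values were 5.66 ± 0.12 and 4.78 ± 0.39 (log2 fold change -0.88, SE 0.21, limma adjusted p = 0.01). The third, at chr2:171797251-171798750, had 4.81 ± 0.36 and 3.70 ± 0.59 (log2 fold change -1.10, SE 0.29, limma adjusted p = 0.0286). None of the 3 calls held without WT replicate 2, and without KO replicate 3 the number called lower was 1. The median log2 fold change of the 111 peaks was -0.02, against 0.00 over all peaks, and their largest was 0.82.

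**Figure D2:**
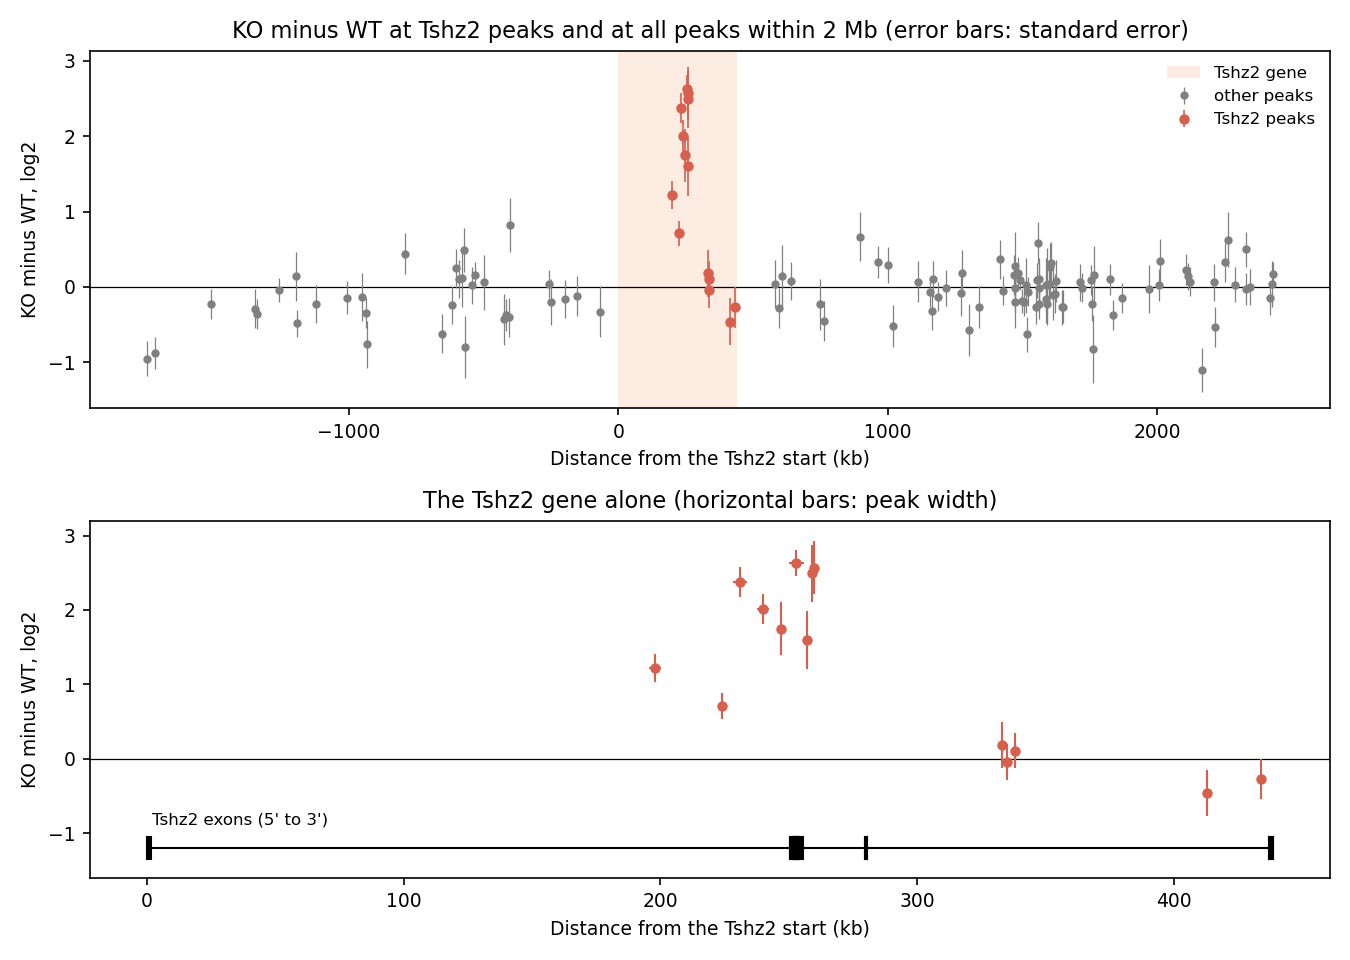
Log2 fold change, KO against WT, with its standard error (y) against distance from the *Tshz2* start in kb (x), for *Tshz2* peaks (red) and all other peaks within 2 Mb of these (grey), and below for the gene alone with its exons in black and peak widths as horizontal bars. The red points above 1 surround the large coding exon, and no grey point exceeds 0.82.

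Input libraries contain sheared chromatin without the antibody and show whether more DNA was recovered from a region. Over the 14 *Tshz2* peaks the WT input held 327 reads and the KO input 337, a ratio of 1.03 (95% confidence interval 0.882 to 1.2, counting error only). Peaks 1 to 9 held 261 and 270 reads, also a ratio of 1.03 (0.869 to 1.23), and the ratio over all peaks was 0.943. The input therefore did not differ detectably over the stretch in which the ChIP differed 3.41-fold. Single peaks hold few input reads, and at peak 7 the WT input had 4 reads and the KO input 11. With the input subtracted, the log2 fold change of peak 7 was 0.14 in place of 1.60, whereas the other 8 peaks of the stretch lay between 1.02 and 2.99.

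With ChIP expressed over input, and relative to the median of all peaks in the same genotype, most of peaks 1 to 9 were among the least enriched of all peaks in WT. The median of the 9 was -1.58 log2 units, and the median of their ranks among all peaks was the 0.153 percentile. Peak 6 stood at -2.08 in WT, the 0.0353 percentile, and at 0.41 in KO, the 76.3 percentile. Peak 1 was at the 2.06 percentile in WT, and peaks 2 and 7 were the exceptions at the 38.4 and 48.3 percentile. In KO all 9 peaks were above the median of all peaks, at 0.02 to 1.43 log2 units. MACS was run on the ChIP libraries of both genotypes together, so a region that carries the mark in one genotype only can still be a peak in the table. Since the stretch was set apart by its KO against WT values, its low ranks in WT follow at least in part from that choice. Peaks 10 to 14 were within 0.66 log2 units of the median in both genotypes.

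**Figure D3:**
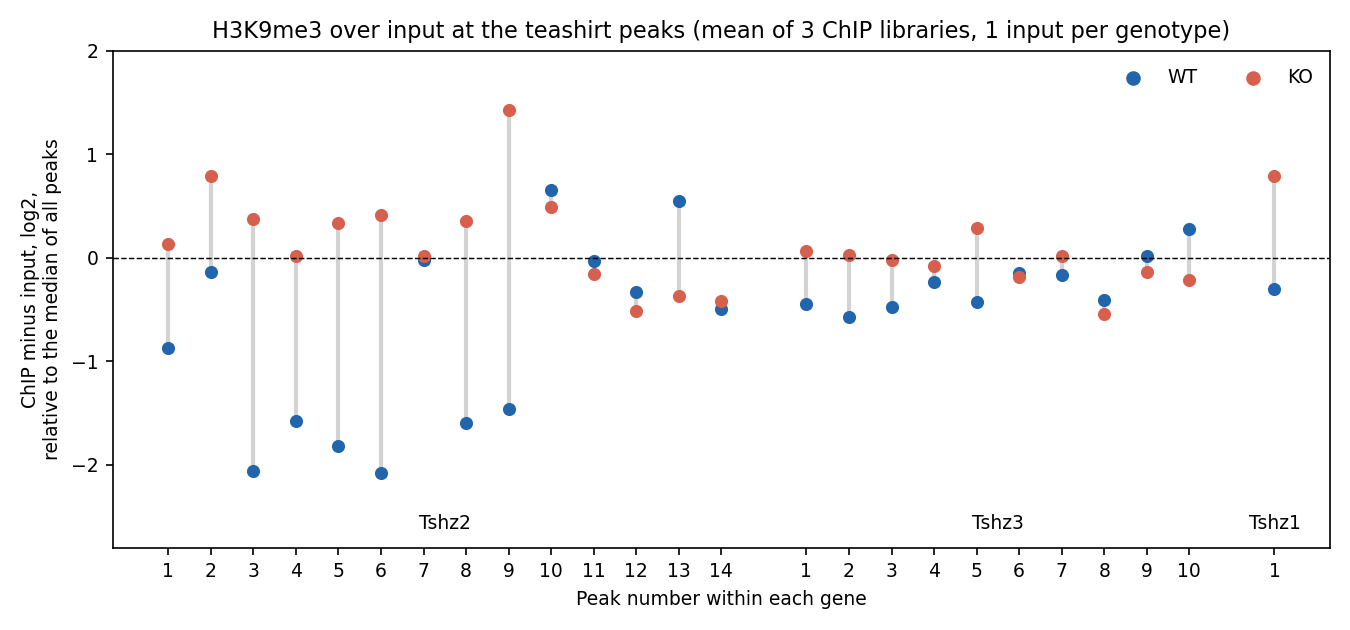
Mean ChIP minus input on the log2 scale, relative to the median of all peaks of that genotype (y, dashed line at the median), for each teashirt peak (x) in WT (blue) and KO (red). At *Tshz2* peaks 1, 3, 4, 5, 6, 8 and 9 the WT value is at least 0.87 below the median and the KO value above it.

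The peaks of the differing stretch also shared base content. It was not used to choose the gene, although the stretch itself was set apart by its KO against WT values. Peaks 1 to 9 had a median of 20.2 CpG per kb (16.3 to 27.2), against a median of 6.67 over all peaks. Peaks 10 to 12 had a median of 10.4, and peaks 13 and 14 of 13.3. Repeat sequence made up a median of 15.6% of peaks 1 to 9 (6.9% to 27.2%), 26.7% of peaks 10 to 12, 41.1% of peaks 13 and 14 and 37.8% over all peaks. The groups overlapped in both measures, since peak 13 had 16.7 CpG per kb and peaks 10 and 11 were 22.4% and 26.7% repeat sequence. A low repeat share was not particular to this stretch. The *Tshz3* peaks had a median of 15.4% (13.4% to 21.9%) and the *Tshz1* peak 11.9%. The median GC content was 46.7% at peaks 1 to 9, 46.3% at peaks 10 to 12, 48.1% at peaks 13 and 14 and 41.9% over all peaks.

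Across the 14 peaks the log2 fold change rose with CpG per kb (Pearson r = 0.74, Spearman rho = 0.75) and fell with the share of repeat sequence (r = -0.83, rho = -0.81). It had little relation to GC content (r = -0.03, rho = 0.03) or to the KO to WT ratio of input reads (r = 0.06, rho = -0.04). The 14 points share 6 libraries and neighboring positions in 1 gene, so these are descriptions.

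*Tshz3* (ENSMUSG00000021217), on the plus strand of chromosome 7 at 36698118 to 36773553, carried H3K9me3 in both genotypes. Its 10 peaks covered 64.7 kb of a 71.1 kb stretch (chr7:36712651-36783750), from the intron to beyond the 3′ end. The summed log2 level was 9.93, 9.96 and 9.91 in WT and 9.92, 9.69 and 10.20 in KO. The means of 9.93 ± 0.02 and 9.94 ± 0.25 (SD, n = 3) differed by 0.01. Limma called 0 of the 10 peaks changed (1 at an unadjusted p under 0.05), where 1.66% of all peaks were called and 10.6% passed the unadjusted threshold, and the median log2 fold change was 0.09, from -0.11 to 0.49.

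Peak 9 of *Tshz3* (chr7:36747901-36772350, 24450 bp) holds the coding exon that matches the one in *Tshz2* peak 6. Its WT values were 8.53, 8.68 and 8.59 and its KO values 8.45, 8.23 and 8.79, a log2 fold change of -0.11 (SE 0.11). Peak 10 (chr7:36772501-36783750) holds the end of that exon and had 7.47, 7.48 and 7.38 in WT and 7.28, 7.07 and 7.67 in KO. At both peaks KO replicate 2 lay below and KO replicate 3 above all WT libraries.

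Of the 10 *Tshz3* peaks, 1 had all KO values above all WT values, near the share of 7.2% over all peaks. This was peak 2 (chr7:36714451-36718800), at 6.31, 5.85 and 6.44 against 5.82, 5.59 and 5.72. The log2 fold change was 0.49 (SE 0.17). The gap between KO replicate 2 and WT replicate 1 was small beside the spread within KO. Peak 1 (chr7:36712651-36714150) had 4.82, 3.45 and 4.49 in WT and 4.73, 4.12 and 4.77 in KO. Peak 3 (chr7:36719101-36721200) had 4.98, 4.92 and 5.15 in WT and 5.37, 4.86 and 5.10 in KO, and the genotypes overlapped at both.

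Toward the middle of the *Tshz3* intron the genotypes overlapped as well. Peak 4 (chr7:36722851-36728850) had 6.20, 6.54 and 6.58 in WT and 6.61, 6.33 and 6.65 in KO. Peak 5 (chr7:36729901-36730650) had 3.52, 3.33 and 3.25 in WT and 3.42, 4.28 and 3.56 in KO. KO replicate 2 was the highest library at this short peak. Peak 6 (chr7:36730651-36732750) had 5.12, 4.96 and 4.79 in WT and 5.14, 5.00 and 4.72 in KO. Peak 7 (chr7:36732751-36742350) had 7.29, 7.14 and 7.02 in WT and 7.10, 6.95 and 7.53 in KO. Peak 8 (chr7:36744751-36747300) had 5.07, 5.35 and 5.15 in WT and 5.14, 5.04 and 5.72 in KO. Over the gene KO replicate 2 was the lowest KO library at 8 of 10 peaks and KO replicate 3 the highest at 7, the reverse of their places in *Tshz2* peaks 1 to 9.

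*Tshz1* (ENSMUSG00000046982), on the minus strand of chromosome 18 at 84011627 to 84087706, had 1 peak (chr18:84009601-84016500). It covers the whole last exon, with 3212 coding bases, and runs past the 3′ end of the gene. The peak had 7.08, 6.63 and 6.58 in WT and 7.38, 7.72 and 7.11 in KO, and KO replicate 3 was only just above WT replicate 1. The means were 6.76 ± 0.27 and 7.40 ± 0.31 (SD, n = 3), a log2 fold change of 0.64 (SE 0.14) or 1.56-fold. It was called higher in the fit over all peaks, and the call was lost without WT replicate 2 or without WT replicate 3. The input moved the other way at this peak, with 77 reads in WT and 53 in KO, a ratio of 0.688 (95% confidence interval 0.476 to 0.989, counting error only), and with the input subtracted the log2 fold change was 1.18.

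**Figure D4:**
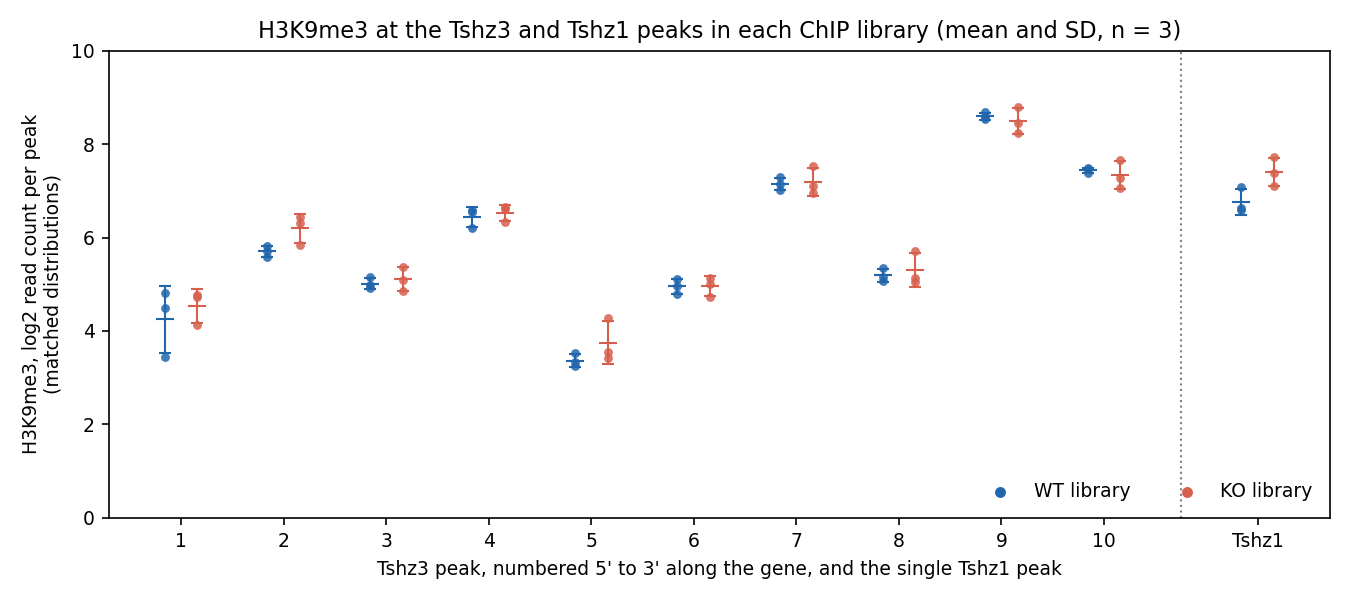
Log2 read count (y) of the 10 *Tshz3* peaks and the *Tshz1* peak (x) in 3 WT (blue) and 3 KO (red) ChIP libraries, as dots with the mean and SD. The genotypes overlap at 9 of 10 *Tshz3* peaks, and at the *Tshz1* peak the KO libraries (7.11 to 7.72) lie above the WT libraries (6.58 to 7.08). Over all peaks, 7.2% had all KO values above all WT values and 8.42% had them below.

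Levels of different peaks were compared per kb of peak, on the log2 scale. In WT, *Tshz2* peaks 1 to 9 had 2.72 ± 0.26, below *Tshz3* with 3.92 ± 0.02 and *Tshz1* with 3.97 ± 0.27 (SD, n = 3). The median of all peaks was 3.97. It was taken over single peaks, whereas the groups were summed over their peaks, so the measures are not alike. In KO, *Tshz2* peaks 1 to 9 reached 4.48 ± 0.31, next to 4.62 ± 0.31 at *Tshz1* and above 3.92 ± 0.25 at *Tshz3*. The ranges over libraries of *Tshz2* peaks 1 to 9 and *Tshz1* overlapped in KO. *Tshz2* peaks 10 to 12 were at 3.91 ± 0.05 in WT and 3.98 ± 0.14 in KO, close to *Tshz3*. Peaks 1 to 9 were set apart by their KO against WT values, so their low place in WT follows in part from that choice, and the levels of the regions were not tested against each other. The *Tshz1* and *Tshz3* peaks also held more CpG than the median of all peaks, with 21.9 per kb at the *Tshz1* peak and a median of 14.5 at *Tshz3*.

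**Figure D5:**
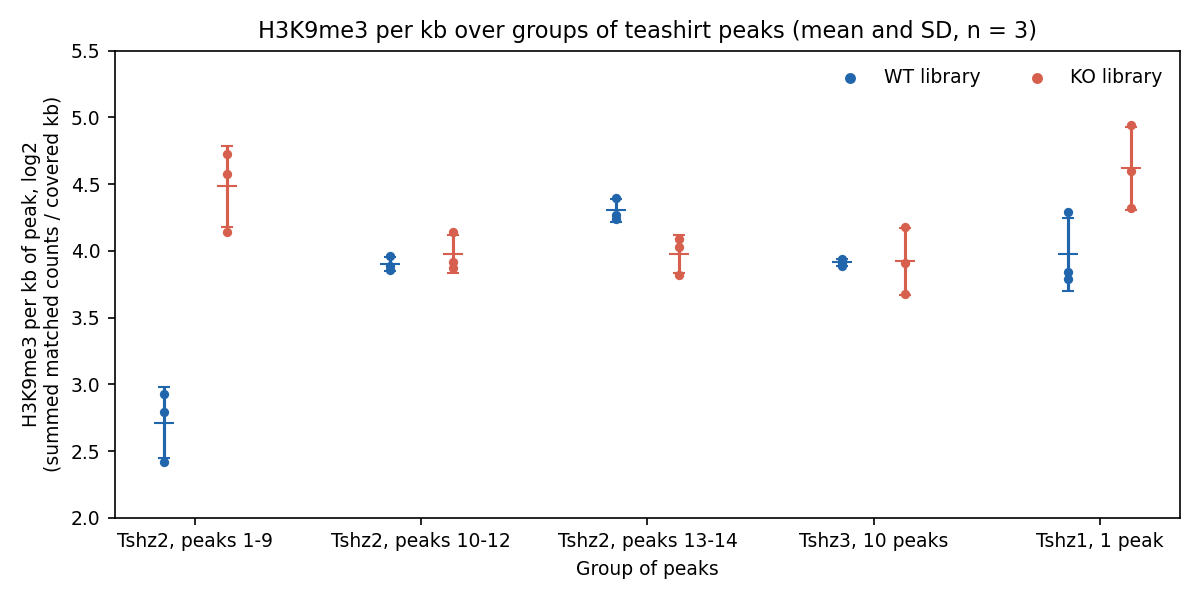
H3K9me3 per kb of peak (y, log2 of the summed matched counts divided by the covered length) for groups of teashirt peaks (x) in 3 WT (blue) and 3 KO (red) libraries, as dots with the mean and SD; the y axis starts at 2. *Tshz2* peaks 1 to 9 lie at 2.42 to 2.93 in WT and at 4.14 to 4.73 in KO.

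Related genes were examined as 2 lists. Teashirt proteins belong to the zinc finger homeobox class, whose other genes include the repressors *Zeb1* and *Zeb2*. Of 11 further genes of this class 6 had a peak (*Zeb1*, *Zfhx3*, *Zfhx4*, *Adnp2*, *Zhx2* and *Zhx3*). Limma called 0 of their 13 peaks changed (0 higher and 1 lower at an unadjusted p under 0.05), where 1.66% of all peaks were called and 10.6% passed the unadjusted threshold, so the count of 0 says little about so few peaks. They had a median log2 fold change of 0.08, from -0.46 to 0.29. The most changed was at *Zhx2* (chr15:57780001-57783000), with 5.75 ± 0.16 in WT and 5.29 ± 0.04 in KO (SD, n = 3; log2 fold change -0.46, SE 0.18, limma adjusted p = 0.283).

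The other list held 33 genes, among them known partners of teashirt proteins, such as the co-repressor *Ctbp1*, the histone deacetylase *Hdac2* and the *Gli* factors of Hedgehog signaling, and mouse counterparts of fly genes that act with teashirt. Of these 10 had peaks, 19 in all, with a median log2 fold change of -0.19 (-0.91 to 0.67). Limma called 0 of the 19 peaks changed, where 1.66% of all peaks were called, so few calls would be found among so few peaks in any case. At an unadjusted p under 0.05 there were 0 higher and 4 lower, beside 4.52% and 6.06% of all peaks. All KO values were below all WT values at 5 of the 19 peaks and above them at 0, beside 8.42% and 7.2% of all peaks. At *Ctbp1* the most changed of 2 peaks had a log2 fold change of -0.72 (SE 0.25, limma adjusted p = 0.17), and at *Hdac2* the most changed of 2 had -0.55 (SE 0.22, limma adjusted p = 0.309). These 2 genes did not stand out in the list, where peaks of *Dach2* and *Gli1* had -0.91 and -0.72 and a peak of *Gli3* had 0.67.

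Among 496 other genes with at least 5 peaks, 5 had a mean pattern over the 6 ChIP libraries closest to that of *Tshz2*, measured as the root mean square difference of the centered log2 values. These were *Wwox* (0.09, 70 peaks), *Grip1* (0.10, 72 peaks), *1600021P15Rik* (0.12, 7 peaks), *Trio* (0.12, 10 peaks) and *Cdyl* (0.13, 11 peaks). Limma called 42 *Wwox* peaks, 63 *Grip1* peaks, 5 *1600021P15Rik* peaks, 9 *Trio* peaks and 8 *Cdyl* peaks higher in KO, and none of their peaks lower, where 0.796% of all peaks were called higher. Genes picked for their likeness to *Tshz2* had to differ between KO and WT in the same direction, so these counts follow from the choice. For the same reason their mean log2 fold changes, 0.96 to 1.43 against 1.21 for *Tshz2*, are a description. All lie on chromosomes other than chromosome 2. *Tshz3* was at place 161 in this order, with a difference of 0.59.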

How the data were processed

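H3K9me3 ChIP (3 libraries) and input (1 library) of WT and *Smarcad1*-KO colon crypts were analysed, with samples grouped by their labels. The authors trimmed reads with Trim Galore, mapped them to GRCm38 with Bowtie2 2.3.2, kept mapping qualities of 20 or more, removed duplicates, and ran MACS in SeqMonk on all ChIP libraries together (fragment 300 bp, p = 1e-05). The read layout and the version of Trim Galore differ between the labels and the methods. For ChIP, the deposited unit is the log2 of the read count in a peak after the authors gave the 6 libraries one distribution, which removes any difference in total H3K9me3. Input was deposited as the log2 of unscaled reads. A second table, with the p-values, FDR and fold changes of the authors' own edgeR comparison, was not used.

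Median reads per peak, recovered from the value steps, were 15, 19 and 20 in WT and 14, 17 and 19 in KO. Between 10 and 100 reads, the linear value per read varied within a library from 0.869 to 1.02 at the widest. The inputs held 733413 (WT) and 691770 (KO) reads in peaks. Intervals of input ratios are exact Clopper-Pearson at 95%, and cover counting error only.

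Genotypes were compared over 53761 peaks with limma (version 3.58.1, under R 4.3.3), fitted to the log2 values with a mean-variance trend, two-sided, Benjamini-Hochberg adjusted p under 0.05. Levels were summed on the linear scale. The code was tested on simulated data. Gene models came from GENCODE vM21, and repeats are the soft-masked bases of the reference. Every teashirt peak is named, as are list genes with a called peak, the nearest and called peaks within 2 Mb, and the 5 genes most like *Tshz2*. *Zhx2*, *Ctbp1*, *Hdac2*, *Dach2*, *Gli1* and *Gli3* were named after their values were seen. A gene of the partner list is not reported here, and the counts of that list leave it out. The members and lists were chosen with earlier results of these data known. Alternatives were a variance prior without trend, a mean log2 of at least 4, centered libraries, quantile normalization, ChIP minus input, a replicate block, stricter calls (adjusted p under 0.01, or log2 fold changes of 1 or more), other ways to sum, and leaving out each library.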

Additional observations from a re-analysis of the deposited data

How the results depend on the processing

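The summed *Tshz2* level stayed 1.21 to 1.47 log2 units higher in KO under the alternatives run for it (scaling, input, averaging, the block and leaving out each library), and it was not recomputed for peaks with a mean log2 of at least 4. Without the variance trend, 127 peaks were called in all (112 higher and 15 lower), 5 at *Tshz2*, and 0 at *Tshz1* and *Tshz3* and within 2 Mb. With a mean log2 of at least 4, 5 *Tshz2* peaks were called of 8 tested, and the *Tshz2* median log2 fold change was 0.97, against 1.41 over all 14 peaks. With ChIP minus input, which treats each single input library as free of error, 15873 peaks were called (9361 higher), 2 at *Tshz1* and *Tshz3*, 3 in the zinc finger homeobox list, 1 in the partner list and 21 within 2 Mb. The *Tshz2* median was then 1.06, and peaks 10, 12 and 14, with small differences, changed sign (-0.08, -0.09 and 0.17). An adjusted p under 0.01 gave 554 peaks in all and 0 within 2 Mb. A log2 fold change of at least 1 gave 511 in all, 0 at *Tshz1* and *Tshz3* and 1 within 2 Mb.

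Leaving out 1 library gave 570 to 805 peaks in all (570 without WT replicate 2), 6 to 9 at *Tshz2* (6 without KO replicate 2), 0 to 1 at *Tshz1* and *Tshz3*, 0 to 2 within 2 Mb, and a *Tshz2* median of 1.02 to 1.71. The replicate numbers did not pair the libraries (correlations of -0.00, 0.02 and 0.02), and with the replicate block 872 peaks were called in all and 9 at *Tshz2*. For single teashirt peaks, 239 of 250 alternative values moved by less than the spread between replicates, and the other 11 all came from ChIP minus input. Most of these settings could hardly move the values, so the 239 say little. The replicate block leaves each log2 fold change as it is, and centering or quantile normalization changes already matched libraries little. Leaving out 1 of 3 libraries shifts a mean by less than their SD. With ChIP minus input, 11 of the 25 peaks moved. Few reads in WT limit the fold changes of peaks 5 and 7 to 9.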
